A study of Homo sapiens with 17 samples.

Results

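The replication-dependent histone genes encode the linker histone H1 and the core histones H2A, H2B, H3 and H4 that package newly copied DNA. They were chosen by name, as the protein-coding genes whose current symbol is H2AC, H2BC, H3C or H4C with a number, or H1-1 to H1-5. This gave 68 genes of the 17283 with a count at either time point: 5 of type H1, 17 of H2A, 18 of H2B, 13 of H3 and 15 of H4. Their ribosome footprints (the mRNA fragments that ribosomes shield from nuclease) and their mRNA were read in 17 libraries of HEK293 cells, an established human embryonic kidney line. The cells were electroporated with Cas9, which cuts DNA, or with dCas9, which binds without cutting. Both were complexed with sgIntron, a guide directed to an intron of JAK2, so cells of every group received a nuclease protein and the same guide.

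At 36 h, footprints came from 2 Cas9 lysates (a and c) and 2 dCas9 lysates (d and e), and mRNA came from 3 Cas9 lysates (a, b and c) and the same 2 dCas9 lysates. The 72 h samples comprise, for Cas9 and for dCas9 alike, footprints of replicates e and f (2 libraries) and mRNA of replicates a and b (2 libraries), so letters do not link footprints to mRNA there. The guides were synthetic at 36 h and transcribed in vitro at 72 h, so time cannot be told apart from guide source, and the time points were fitted separately. A replicate is 1 plate of a single cell line that received several pooled electroporations, and P values describe the spread between such plates.

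Over the transcript kept for each gene, footprint libraries held 689636 to 4868580 counts at 36 h and 3183558 to 8864461 at 72 h. The mRNA libraries held 25095505 to 33350952 and 33040306 to 42825659. Of the HEK293 markers, the intermediate filament gene VIM stood at 599 to 1069 CPM in mRNA (CPM are counts scaled to a common library total), while the kidney factor PAX2 had at most 12 counts in any library. The erythroid markers of another common line, K562, summed to at most 1.81 CPM in mRNA, and the regulator GATA1 had 0 mRNA counts throughout.

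Histone protein is needed when DNA is copied, and these genes are therefore expressed mainly in S phase. As a class, their mRNAs are the known exception among animal mRNAs in ending with a conserved stem-loop and not with a poly(A) tail. SLBP, the stem-loop binding protein, accompanies the mRNA through its processing, translation and decay, while NPAT and CASP8AP2 act at the histone locus body where the genes are transcribed. The mRNA libraries here were made by ribosomal RNA depletion, so no poly(A) tail was needed to enter them.

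The stem-loop is the feature that all members share outside their coding sequence. A search for GGNNCTTNTNANNNCC on the coding strand, within the first 100 bases of the 3′ UTR, found it in 68 of 68 members and in 8 of 19149 other protein-coding genes (0.0418%). The main forms, read from GENCODE release 44 on hg38, are shown because they separate H4 from the other types, with the 4-base loop in capitals and the flanking stem in lower case.
Form of 40 members of types H1, H2A, H2B and H3: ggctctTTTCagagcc
Form of 10 members, all H4: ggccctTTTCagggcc
Form of 8 members of types H1, H2A, H2B and H3: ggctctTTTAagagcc
Form of 4 members, all H4: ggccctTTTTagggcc
The remaining 6 members each had a form of their own, among them H2BC10 with ggctctTCTAagagcc. The H4 stem thus carried ccc against ggg where most other members carried ctc against gag. In H2BC18 (chr1:149811885-149811900, minus strand) the element lay 43 bases after the stop codon, and in H4C8 (chr6:26285131-26285146, minus strand) it lay 42 bases after it. The annotated transcripts of H2BC26, H2BC21, H3C10 and H2AC25 run on past the element, by 4551, 1729, 769 and 390 bases. Whether these longer ends were present here was not tested.

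Promoter letters also differed between types. In RefSeq promoters (GRCh38) from 250 bases before to 50 bases after the start, searched on both strands, the octamer ATTTGCAT was found in 14 of 18 H2B, 11 of 16 H2A, 1 of 11 H3, 0 of 13 H4 and 0 of 5 H1 promoters, against 1.8% of 27305 promoters in all. CCAAT was in all 5 H1, 16 H2A, 18 H2B and 11 H3 promoters held in the table and in 3 of 13 H4 promoters, against 35.7% of all. TATAAA was in 7 of 13 H4 promoters and in 12 of 16 H2A promoters, against 12% of all. H4 thus differed from the other types in its stem-loop and in the share of promoters with CCAAT. These matches describe letters only.

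Most of the members sit in a large cluster on chromosome 6, with 54 genes between 25723397 and 27893891 (hg38). A further 11 lie close together on chromosome 1 between 149782689 and 149887965, 2 lie elsewhere on chromosome 1, and H4C16 lies alone on chromosome 12. The 11 genes of the small cluster carried 45.7 to 48% of the members' summed footprint CPM at 36 h and 41.3 to 43.4% of their mRNA CPM. At 72 h they carried 44.3 to 45% and 42.4 to 43.4%. All 10 members with the highest footprint level per codon at 36 h were in it, and so were 9 of 10 at 72 h. This cluster also holds 3 of the 4 pairs of members with identical coding sequence, whose counts cannot be separated. Its share adds both genes of each pair. Whether a read was counted for both was not tested, and the share and these ranks depend on it.

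All 68 members had a count at both time points. Together they took 9.88 to 11.7% of the footprint counts of a library at 36 h and 10.5 to 11.1% at 72 h. They took 3.18 to 3.72% of the mRNA counts at 36 h and 3.39 to 4.13% at 72 h. With each identical pair counted once, the shares were 8.22 to 9.67% and 8.87 to 9.38% of footprints, and 2.68 to 3.13% and 2.88 to 3.48% of mRNA. The share was higher in each of the 8 footprint libraries than in any of the 9 mRNA libraries. In such bulk samples, fewer cells that make histone mRNA and less mRNA per cell cannot be told apart.

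CPM values were scaled within each library type, and levels are compared between genes only per 100 counted codons. Among the core types, H2B had the highest summed level in every library of both kinds. Per 100 codons, H2B footprints at 36 h summed to 30519 ± 1421 CPM with Cas9 and 27228 ± 3272 with dCas9 (SD, n = 2 each). H2A followed at 27588 ± 1953 and 25192 ± 4197, then H3 at 25660 ± 1003 and 23701 ± 4583, and these neighbours lay within their spread in dCas9 cells. H4 had the lowest core footprint level in every library, at 20545 ± 1168 and 17908 ± 254, and the linker type H1 stood far below at 4000 ± 3.22 and 4153 ± 424.

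The order of the types was different in mRNA. There H3 was lowest of the core types in all 9 libraries, at 5028 ± 402 CPM per 100 codons in Cas9 cells (n = 3) and 5425 ± 616 in dCas9 cells (n = 2) at 36 h. H4 mRNA stood at 8182 ± 439 and 8375 ± 1000 (SD), near H2A at 7899 ± 512 and 8510 ± 1383, and these could not be ranked within their spread. H3 was thus 0.589 to 0.651 of H4 in mRNA per codon at 36 h but 1.13 to 1.52 of H4 in footprints. At 72 h the same comparison gave 0.686 to 0.741 in mRNA and 1.03 to 1.17 in footprints, so H3 exceeded H4 in all 8 footprint libraries and in none of the 9 mRNA libraries. Across a library, the highest core type exceeded the lowest by 1.38 to 1.67 times in footprints at 36 h and 1.56 to 1.78 times at 72 h.

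**Figure D1:**
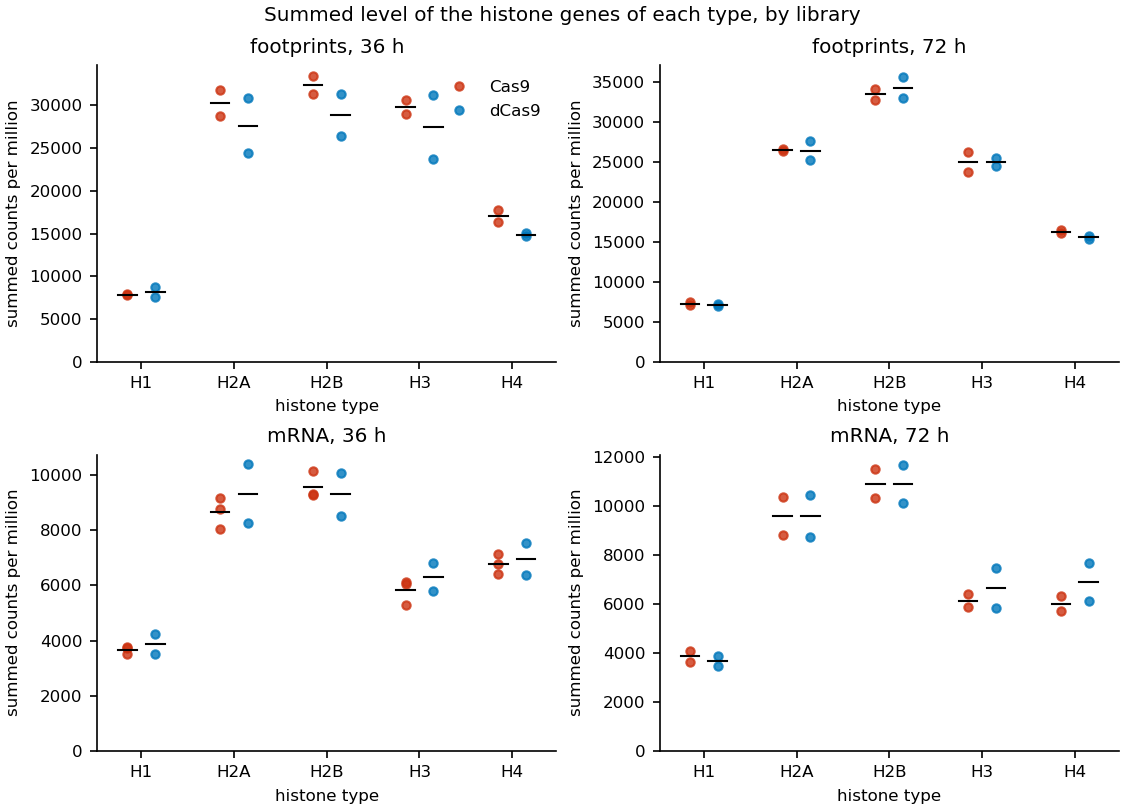
Summed CPM of the histone genes of each type (x axis) in each library, for footprints (top) and mRNA (bottom) at 36 h (left) and 72 h (right). Red points are Cas9 libraries, blue points dCas9 libraries and bars the group means; these sums are not divided by length. H2B has the highest mean except in dCas9 mRNA at 36 h, where H2A stands at 9333 and H2B at 9301 CPM.

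In H1, H3 and H4, 2 members carried at least 50.1% of the footprints at both time points. H1-2 and H1-4 made up 96.3% of H1 footprints and 96.6% of H1 mRNA at 36 h, with H1-4 at 3856 and 4100 footprint CPM in Cas9 cells and 3804 and 4487 in dCas9 cells. H1-2 stood at 3689 and 3508 against 3438 and 3944, so the groups overlapped for both. H3C14 and H3C15, 2 H3 genes of identical coding sequence, gave 55.7% of H3 footprints at 36 h and 51.9% at 72 h. H3C15 had 9251 and 8663 CPM in Cas9 footprints at 36 h and 7124 and 9235 in dCas9 footprints, the highest level per codon of any member.

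H4C14 and H4C15, which encode H4 with the same coding bases, gave 50.1% of H4 footprints at 36 h and 50.9% at 72 h. H2AC18 and H2AC19 gave 37.5% and 37.9% of H2A. H2B was spread more evenly, and its leading genes H2BC18 and H2BC21 together gave 26.1% of H2B footprints at 36 h and 24.2% at 72 h. H2B holds no pair of identical coding sequence, while the shares of the H4 and H2A pairs add the counts of both genes. Over the 58 members that could be tested at both time points, the order of levels was nearly the same, with a rank correlation of 0.98 between 36 and 72 h for footprints and of 0.98 for mRNA. These points share sequence and libraries, so the correlation is a description only.

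In mRNA the leading genes were mostly the same. H4C15 had the highest mRNA level per codon at 36 h, with 1698, 1637 and 1512 CPM in Cas9 lysates a, b and c and 1494 and 1759 CPM in dCas9 lysates d and e. H2BC18 followed at 1797, 1897 and 1719 CPM against 1718 and 2042 CPM, H2AC18 at 1958, 1846 and 1693 CPM against 1760 and 2233 CPM, and H3C14 stood at 1564, 1583 and 1345 CPM against 1512 and 1732 CPM. In all of these the groups overlapped, and dCas9 lysate e was the highest value. At 72 h the leaders of H2A, H3 and H4 in mRNA were the partner genes H2AC19, H3C15 and H4C14 of the same identical pairs, while H2BC18 stayed first of H2B and H1-2 first of H1, the latter at 2260 and 1991 CPM with Cas9 and 2104 and 1885 CPM with dCas9.

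Members of a pair with identical coding sequence had close counts. At 72 h the counts of H2AC18 and H2AC19 differed by at most 12, those of H3C14 and H3C15 by at most 22 and those of H4C14 and H4C15 by at most 9 in any library. At 36 h the ratio of H2AC18 to H2AC19 ranged from 0.823 to 1.15, and the other pairs of the cluster were similar. For the fourth pair, H4C11 and H4C12 on chromosome 6, the ratio ranged from 0.84 to 1.17 at 36 h and from 1 to 1.11 at 72 h. The 4 pairs hold 30.1 to 34.1% of the members' counts over both time points, and the value of a single gene in such a pair cannot be separated from that of its partner.

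**Figure D2:**
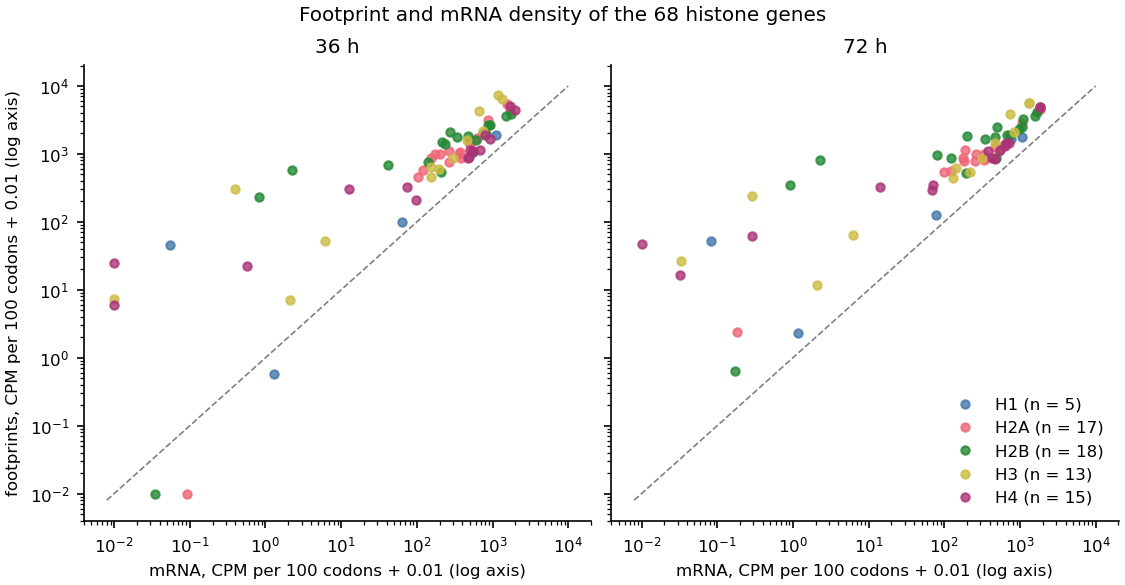
Mean footprint CPM per 100 counted codons against mean mRNA CPM per 100 codons, each plus 0.01 and on log axes, for the 68 members at 36 h (left) and 72 h (right), coloured by type, with the line of equal values dashed. Nearly all members lie above the line, and a group at the left has footprints with almost no mRNA counts.

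For these genes, the difference between footprints and mRNA was larger in median than any difference between Cas9 and dCas9. In dCas9 cells at 36 h, footprints exceeded mRNA in 58 of 58 members tested, where 23.6% of all 9016 tested genes passed in this direction and 24.6% in the other (edgeR quasi-likelihood test, Benjamini-Hochberg adjusted P under 0.1). At 72 h it was 60 of 60 members, where 32.7% of 10896 genes passed upward and 37.8% downward. For this contrast, libraries of both kinds were scaled together to comparable totals, so the difference is relative to other genes. The members' median log2 difference was 1.66 at 36 h and 1.58 at 72 h, or 3.16-fold and 2.99-fold relative to mRNA, beside medians of -0.01 and -0.06 over all tested genes. Among other tested genes with 83 to 201 counted codons, the range of the members, 34.1% passed at 36 h with a median of 0.27, and among those with 84 to 202 codons 49.6% passed at 72 h with a median of 0.31.

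The 10 members without a test at 36 h and the 8 at 72 h fell under the count minimum in footprints or in mRNA. The 90th percentile of all tested genes lay at 1.12 at 36 h, and 50 of 58 members were above it, while 54 of 60 were above 1.08 at 72 h. Members are richer in GC than other genes, with a median of 61.2% in the coding sequence against 51.7%, and across genes the rank correlation of GC with the footprint to mRNA difference was 0.26 at 36 h and 0.35 at 72 h. After the median of the 500 genes nearest in GC was subtracted, the members' median was 1.43 at 36 h and 1.34 at 72 h, and all tested members were still above 0.

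The types differed in size of this contrast. Summed by type in dCas9 cells at 36 h, H3 footprints exceeded H3 mRNA 4.91-fold (log2 difference 2.29, SE 0.13), followed by H2B at 3.48-fold, H2A at 3.32-fold, H4 at 2.4-fold and H1 at 2.36-fold. At 72 h the order was H3 at 4.18-fold (log2 2.06, SE 0.096), H2B at 3.49-fold, H2A at 3.06-fold, H4 at 2.51-fold and H1 at 2.14-fold. The differences between types were not tested. Within a lysate, and relative to the median tested gene, the footprint to mRNA ratio of H3 was 4.63 and 5.41 in dCas9 cells and 5.88 and 6.28 in Cas9 cells at 36 h, above every value of the other types.

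**Figure D3:**
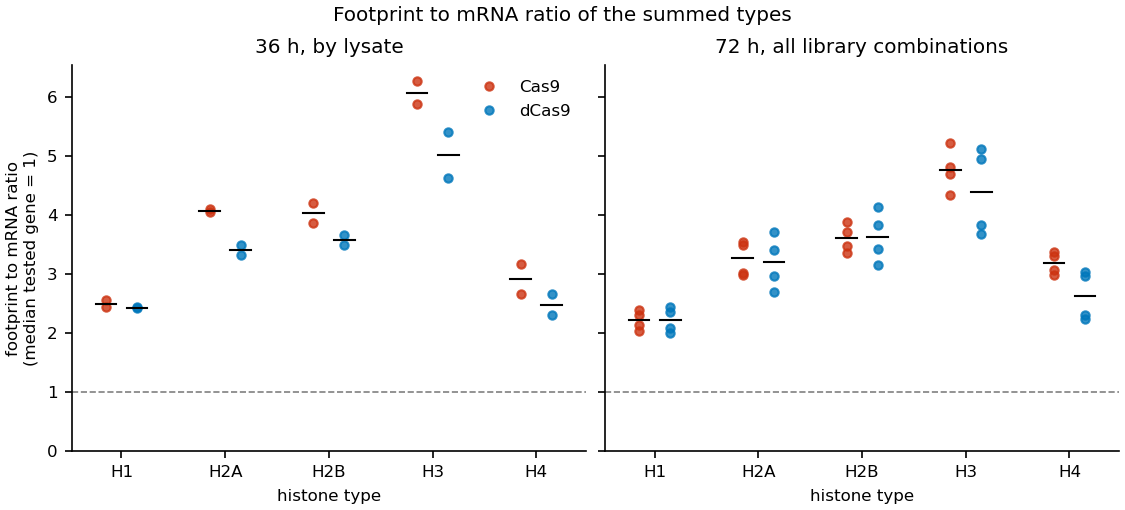
Ratio of summed footprint CPM to summed mRNA CPM by histone type, divided by the median ratio of all tested genes (dashed line at 1), for each lysate at 36 h and for all 4 combinations of a footprint and an mRNA library per nuclease at 72 h. Red is Cas9, blue dCas9 and bars are means; at 36 h the H3 values run from 4.63 to 6.28 and the H1 values from 2.42 to 2.56.

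Single members ranged widely around these medians. The smallest contrast at 36 h was that of H4C3, at 1.63-fold (log2 0.70, SE 0.13), and at 72 h that of H1-3, at 1.87-fold (log2 0.90, SE 0.1). The most abundant genes were moderate at 36 h, with H2BC18 at 2.21-fold, H4C14 at 3.02-fold and H2AC19 at 3.43-fold, while H3C15 stood at 6.36-fold. The partners with identical coding sequence were lower, with H4C15 at 2.32-fold, H2AC18 at 2.62-fold and H3C14 at 4.87-fold. Counts within a pair cannot be separated, so these gaps are not differences between the genes. Across members, the log2 ratio and the log2 mRNA level had a rank correlation of -0.47 at 36 h (58 members) and -0.51 at 72 h (60 members), a description over genes in which the mRNA level enters both measures.

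At the other end, H2BC14 and H2BC3 were nearly absent from mRNA but well represented in footprints. H2BC14 had 90, 105 and 46 mRNA counts in Cas9 lysates a, b and c and 46 and 42 in dCas9 lysates d and e, or 2.89, 4.28 and 1.41 CPM and 1.86 and 1.47 CPM. Its footprints stood at 560 and 632 CPM with Cas9 and at 581 and 698 CPM with dCas9, so the groups overlapped in both, and the contrast was 425-fold (log2 8.73, SE 0.35) at 36 h and 374-fold (log2 8.55, SE 0.15) at 72 h. H2BC3 had 18 to 30 mRNA counts at 36 h against 166 to 1005 footprint counts, and its contrast was 305-fold and, at 72 h, 399-fold.

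Among the members under the count minimum, the same pattern was seen in counts alone. H1-5, a linker histone, had 0 to 8 mRNA counts at 36 h and 2 to 10 at 72 h, against 65 to 637 and 421 to 892 footprint counts. H3C3 had 2 to 21 and 8 to 17 mRNA counts against 301 to 1335 and 863 to 2417 footprint counts. H4C7 had 0 mRNA counts in all 9 mRNA libraries, which allows up to 0.12 CPM at 36 h and 0.0908 CPM at 72 h by counting error alone, and had 12 to 143 and 123 to 331 footprint counts. H3C8 and H4C6 had 0 mRNA counts at 36 h and at most 2 at 72 h, with up to 254 and 131 footprint counts.

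H1-1 and H3C12 were low in both kinds of library. At 36 h H1-1 had a mean of 1.11 CPM in footprints and 2.49 CPM in mRNA, from 0 to 8 and 50 to 91 counts, and was not tested. H3C12 had 8.08 CPM in footprints and 2.46 CPM in mRNA, from 8 to 20 and 49 to 105 counts. At 72 h, where both were tested, footprints exceeded mRNA 2.2-fold for H1-1 and 7.1-fold for H3C12. H2AC1 and H2BC1, which are known from testis, had 0 footprint counts in every library at 36 h, with at most 6 and 3 mRNA counts. At 72 h they had 4 to 26 and 0 to 13 footprint counts. A 0 in footprints at 36 h allows up to 0.616 CPM in the deepest library and 4.35 CPM in the shallowest.

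Footprints are about as long as the windows in which many histone genes resemble each other. For each member, all 28-base windows of the coding sequence were compared with the coding sequences of the other members. By type, the median share of windows within 2 mismatches of another member was 91.5% for H2B, 83.3% for H2A, 74.5% for H3, 53.7% for H4 and 16.4% for H1. For windows of 50 bases, the length of the mRNA reads, it was 67.6%, 45.9%, 14.4%, 11.8% and 1.3%. Far fewer 28-base windows matched another member without a mismatch, with medians of 33%, 19.2%, 9.9%, 4.6% and 1.6% in the same order. Windows of some members with footprints but few mRNA counts are shown beside the matching window of another member, with the bases that differ in capitals.
H1-5 (chr6:27867376-27867403, minus strand): gtCtcagagctGatcaccaaggctgtgg
H1-2 (chr6:26056284-26056311, minus strand): gtGtcagagctCatcaccaaggctgtgg
H2BC14 (chr6:27815103-27815130, plus strand): caaggcTcagaagaaggatggAaagaag
H2BC7 (chr6:26199618-26199645, plus strand): caaggcGcagaagaaggatggTaagaag
H3C3 (chr6:26045417-26045444, plus strand): cgTacgaagcaAacagctcgcaagtcta
H3C12 (chr6:27890759-27890786, minus strand): cgGacgaagcaGacagctcgcaagtcta
H4C13 (chr6:27873483-27873510, minus strand): atgtctggGcgcggcaaaggcggGaagg
H4C5 (chr6:26204645-26204672, plus strand): atgtctggTcgcggcaaaggcggAaagg
Each pair differs at 2 of 28 bases. Partners were taken by the position of the window and not by their counts. H3C12 had 8 to 20 footprint counts at 36 h, against 301 to 1335 for H3C3. In H2BC14, 70.3% of 28-base windows but 34.9% of 50-base windows were within 2 mismatches of another member. The shares were 70.9% and 39.2% for H2BC3, 58.1% and 9.94% for H3C3, 51.9% and 14.1% for H4C13 and 18% and 4.11% for H1-5. Without a mismatch, the shares of 28-base windows were 17.2% for H2BC14, 15.5% for H2BC3, 9.9% for H3C3, 5.26% for H4C13 and 2.75% for H1-5. The part of such windows in the footprint counts was not tested. Over members with under 75% of such 28-base windows, the median contrast was 1.59 at 36 h and 1.57 at 72 h. That limit still keeps members such as H2BC14 and H2BC3, which share most of their windows within 2 mismatches. The least shared tested members at 36 h were H1-3 (12.7%), H1-4 (16.4%), H4C3 (18.9%) and H1-2 (19.2%). Their log2 contrasts were 0.76, 1.59, 0.70 and 0.89, beside a median of 1.66 over all members. Across members, the rank correlation of contrast and shared windows was 0.20 at 36 h and 0.15 at 72 h.

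Histones outside the S-phase set gave a point of comparison. These genes, such as H2AX, H3-3A and H2AZ1, were listed as made outside S phase or from mRNA with a poly(A) tail. The list held 13 names, of which 11 were found under those symbols and tested. Its other names, H2BU1 and H4-16, stand for H2BC26 and H4C16, which the choice by symbol placed among the members. Footprints exceeded mRNA in 7 of 11 at 36 h, with a median log2 difference of 0.79, and in 9 of 11 at 72 h, with a median of 0.76. H2AX, the variant phosphorylated at DNA breaks, stood at 2.15 (SE 0.14) and 2.41 (SE 0.096), and H2AJ at 3.06 (SE 0.35) and 3.99 (SE 0.17). CENPA, the centromeric H3, stood at -0.05 and 0.02 with adjusted P of 0.946 and 0.94. Of 12 enzymes of DNA synthesis, 8 were higher in footprints at 36 h with a median of 0.82, and 9 at 72 h with a median of 0.51. Over all tested genes, 23.6% passed in this direction at 36 h and 32.7% at 72 h.

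The next comparison asked whether cutting by Cas9 changed histone footprints or mRNA. At 36 h, no member passed in footprints: 0 of 58 by edgeR, with 0% of the 9016 tested genes passing in either direction, and 0 by DESeq2. At an unadjusted P under 0.05 there were 5 members, all higher in Cas9 cells, and 188 genes in all. The members' log2 differences were mostly above 0, in 50 of 58 with a median of 0.13 (1.1-fold), beside a median of 0.01 and 51.2% positive over all tested genes. In 19 members both Cas9 libraries lay above both dCas9 libraries, and in 0 below, where 15.9% and 14.6% of all tested genes did so.

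The dCas9 lysates differed from each other by more than the group means did. The summed footprint level was 97102 CPM in dCas9 lysate d and 116910 in lysate e, against 119991 and 114567 in Cas9 lysates a and c, so the groups overlapped. Without dCas9 lysate d the members' median was -0.01, and without lysate e it was 0.27. Lysate e was also the shallowest footprint library, at 689636 counts, and lysate d the deepest, at 4868580. The part of depth in this was not tested. With the trend over GC content subtracted, the median was 0.06.

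By type, H4 footprints at 36 h were 16366 and 17736 CPM in Cas9 cells and 15011 and 14714 CPM in dCas9 cells. All 4 pairs of libraries were higher with Cas9, but the difference of 1.14-fold had an adjusted P of 0.999. H2BC26, whose current symbol places it in the H2B series although it is known as H2BU1, had 2273 and 1943 CPM against 1576 and 1789. This was the member with the smallest P among those higher with Cas9 (log2 0.33, SE 0.13, adjusted P = 0.999). The member with the smallest P among the 8 lower ones was H2AC4, at 639 and 554 against 541 and 786 CPM (log2 -0.14, SE 0.18), and its sign turned to 0.14 without dCas9 lysate e.

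In mRNA at 36 h, 2 members passed, H2BC6 and H2BC10, both encoding H2B and both higher with Cas9. Both lie in the chromosome 6 cluster, H2BC6 at 26172059 to 26184655 and H2BC10 at 26272931 to 26273412, on the plus strand. They were the only genes called of 9016 (0.0222%). H2BC6 had 216, 319 and 288 CPM in Cas9 lysates a, b and c and 202 and 209 CPM in dCas9 lysates d and e, so all Cas9 values were above both dCas9 values (log2 0.42, SE 0.097, adjusted P = 0.0901). H2BC10 had 32.6, 79.3 and 41.9 CPM against 26.5 and 40.4, a difference carried by lysate b and with overlapping groups (log2 0.61, SE 0.14, adjusted P = 0.0901). Without lysate b the log2 differences were 0.29 and 0.15 and neither passed.

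Lysate b has no footprint library in these data. The footprints of H2BC6 in the other lysates were 1515 and 1498 CPM with Cas9 and 1385 and 1495 with dCas9, and those of H2BC10 were 697 and 703 against 619 and 845. Neither differed beyond the spread. Both calls were lost with DESeq2 (0 members), with median-ratio size factors, without the count minimum and in a model of both library types. Within 2 mismatches, H2BC6 shares 79.8% and H2BC10 58.4% of 50-base windows, the length of the mRNA reads, with another member, and 27.7% and 3.31% without a mismatch. For 28-base windows the shares within 2 mismatches are 98% and 91.8%. Values of such single genes are uncertain to the extent that reads were shared.

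None of the other tested members passed in mRNA at 36 h. H2BC15, another H2B gene, named here after its values were seen, had 264, 354 and 330 CPM in Cas9 lysates a, b and c and 253 and 257 CPM in dCas9 lysates, without overlap (log2 0.31, SE 0.096, adjusted P = 0.808). Of 58 members, 40 had log2 differences below 0 and the median was -0.05, beside 0.00 over all genes, and 2 members (H2BC6 and H2BC15) were higher without overlap and 0 lower, against 8.6% and 8.29% of all genes. The summed mRNA level was 35406, 35595 and 32600 CPM with Cas9 and 32448 and 39077 CPM with dCas9. Without dCas9 lysate d the members' median was -0.18, and without lysate e the median was 0.10.

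Lysate e was thus the higher dCas9 lysate in both footprints and mRNA. Relative to the median tested gene, its footprint to mRNA ratio over all members was 3.52, close to 3.38 in lysate d, while Cas9 lysates a and c gave 3.95 and 4.04. H2A showed this most clearly, with 4.05 and 4.1 in Cas9 lysates and 3.33 and 3.49 in dCas9 lysates. H1 did not, with 2.44 and 2.56 against 2.44 and 2.42.

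The fit of translational efficiency, which is the Cas9 effect on footprints less that on mRNA, called 0 of 58 members at 36 h, with 0% of all genes called, and DESeq2 called 0. At an unadjusted P under 0.05 there were 2 members and 568 genes in all. The members' median was 0.18, with 51 of 58 above 0, beside a median of 0.01 and 51.1% above 0 over all genes. In 28 members the ratios of both Cas9 lysates were above those of both dCas9 lysates, and in 1 below, where 16.2% and 15.3% of all genes did so. The member with the smallest P upward was H2BC8 at 0.43 (SE 0.16, adjusted P = 0.78) and downward H2BC14 at -0.83 (SE 0.42, adjusted P = 0.81), which had at most 105 mRNA counts in any library. The median fell to 0.06 once the GC trend was subtracted, to 0.03 without the footprints of dCas9 lysate d and to 0.02 without the mRNA of dCas9 lysate e. It rose to 0.32 without the footprints of lysate e or the mRNA of lysate d.

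**Figure D4:**
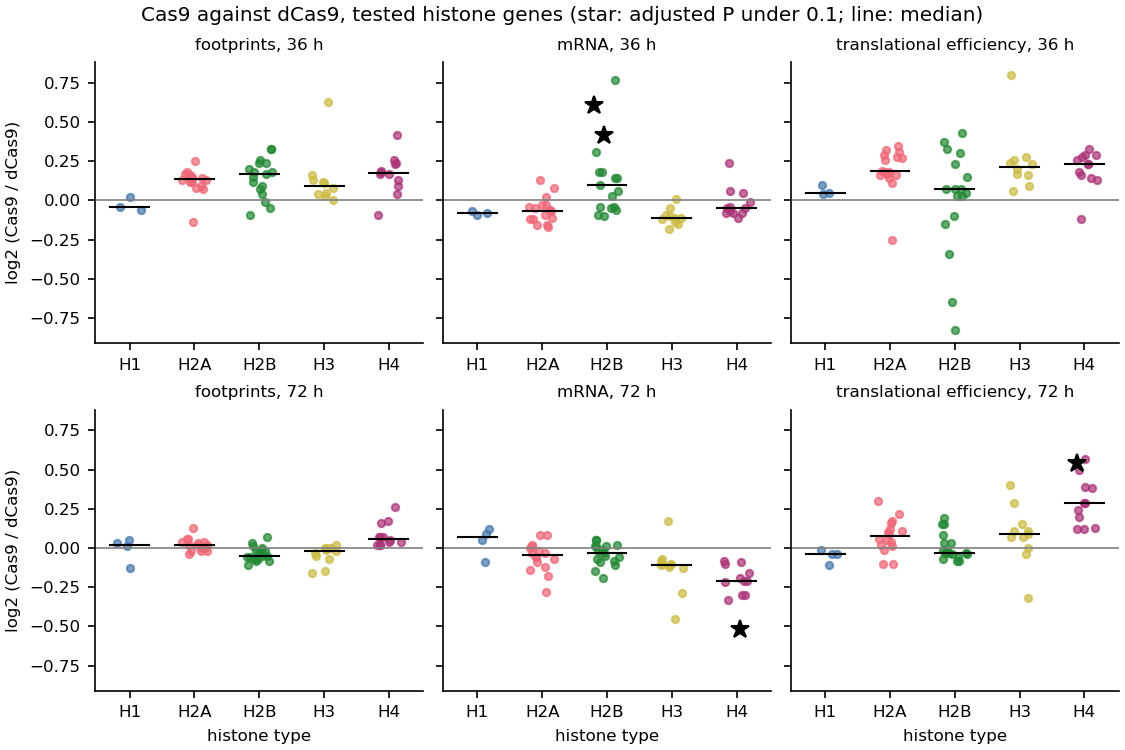
Log2 ratio of Cas9 to dCas9 for the tested members by histone type, in footprints, mRNA and translational efficiency at 36 h (top) and 72 h (bottom). Each point is a gene, lines are medians and stars mark the calls at an adjusted P under 0.1: H2BC6 and H2BC10 in mRNA at 36 h, and H4C8 in mRNA and translational efficiency at 72 h.

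At 72 h, footprints of the histone genes differed little between the nucleases. None of 60 members passed (0 by DESeq2), with 0.0275% of 10896 genes called higher and 0.00918% lower. At an unadjusted P under 0.05 there were 3 members and 418 genes. The median was 0.00, with 33 members above 0, and the range ran from -0.16 to 0.26. Summed footprints were 106855 and 110245 CPM with Cas9 and 105117 and 111730 CPM with dCas9, which overlap and are closer than at 36 h. In 6 members all pairs were higher with Cas9 and in 3 lower, against 15.8% and 15.9% of all genes.

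Among the types, H4 had the highest median in footprints at 72 h, 0.06, with all 12 tested H4 genes above 0, followed by H1 and H2A at 0.02, H3 at -0.02 and H2B at -0.05. Over all tested genes 50.5% were above 0, and the 12 include the identical pairs H4C11 with H4C12 and H4C14 with H4C15. H4C16, the lone gene on chromosome 12 (14767999 to 14771131, minus strand), had the largest value: 290 and 245 CPM with Cas9 and 238 and 209 CPM with dCas9 (log2 0.26, SE 0.087, adjusted P = 1). Without Cas9 library f the log2 difference was 0.38. H2BC10 had the smallest P downward, at 930 and 1031 against 999 and 1116 CPM (log2 -0.11, SE 0.067, adjusted P = 1).

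In mRNA at 72 h, 1 member passed, where 2.66% of all genes were called lower and 0.0275% higher. This was H4C8, an H4 gene on chromosome 6 (26277609 to 26285638, minus strand), at 263 and 264 CPM with Cas9 and 405 and 352 CPM with dCas9. The groups did not overlap and the level with Cas9 was 0.696 of that with dCas9 (log2 -0.52, SE 0.12, adjusted P = 0.0689). Its footprints were 927 and 923 CPM with Cas9 and 880 and 943 with dCas9, which overlap. Accordingly it was also the 1 member called in translational efficiency, higher by 0.54 (SE 0.13, adjusted P = 0.0871), where 0.698% of all genes were called higher and 0.0184% lower. The comparisons share the same mRNA libraries, so the second call is not independent of the first.

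The other H4 genes lay on the same side. In mRNA all 12 tested H4 genes had log2 differences below 0, with a median of -0.21, and in translational efficiency all 12 were above 0, with a median of 0.29. The medians over all genes were 0.02 and 0.00, with 53.1% and 50.1% above 0. The 12 include the identical pairs H4C11 with H4C12 and H4C14 with H4C15, whose counts cannot be separated. In 3 of the 12, both Cas9 mRNA libraries lay below both dCas9 libraries, where 25.2% of all genes did so. H4C14 mRNA was 1487 and 1382 CPM with Cas9 and 1893 and 1431 CPM with dCas9, which overlap (log2 -0.21, SE 0.13, adjusted P = 0.447). Summed H4 mRNA was 6316 and 5698 CPM with Cas9 and 7696 and 6117 with dCas9, with an adjusted P of 0.413. H4C16 mRNA was 56.2 and 47.8 against 66.3 and 62.2 CPM (log2 -0.30, adjusted P = 0.326).

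The medians of the remaining types lay closer to 0. H1 had a median of 0.07 in mRNA, H2A of -0.05, H2B of -0.03 and H3 of -0.11, and over all 60 members it was -0.08 with 45 below 0. In 7 members both Cas9 libraries were below both dCas9 libraries and in 0 above, where 25.2% and 24.4% of all genes were. Histone mRNA was higher in the a than in the b library of both nucleases, at 38694 and 34339 CPM with Cas9 and 41206 and 34308 CPM with dCas9. Without dCas9 library a the members' median was 0.09, and without dCas9 library b it was -0.19. Leaving out either Cas9 library removed the H4C8 call.

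Translational efficiency at 72 h followed the same libraries. The median over the 60 members was 0.08 with 40 above 0, beside 0.00 over all genes. Without the mRNA of dCas9 library a it was -0.10, and without that of library b it was 0.26. In 5 members all combinations of libraries were higher with Cas9 and in 0 lower, against 15.4% and 11.5% of all genes. The H4C8 call was lost in 5 of the 8 fits that each left out 1 library, among them all 4 without a footprint library (adjusted P = 0.266 to 0.506). The mRNA differences at 72 h correlated with GC content by rank over genes (-0.42), and with that trend subtracted the members' medians were -0.01 in mRNA and -0.03 in translational efficiency.

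**Figure D5:**
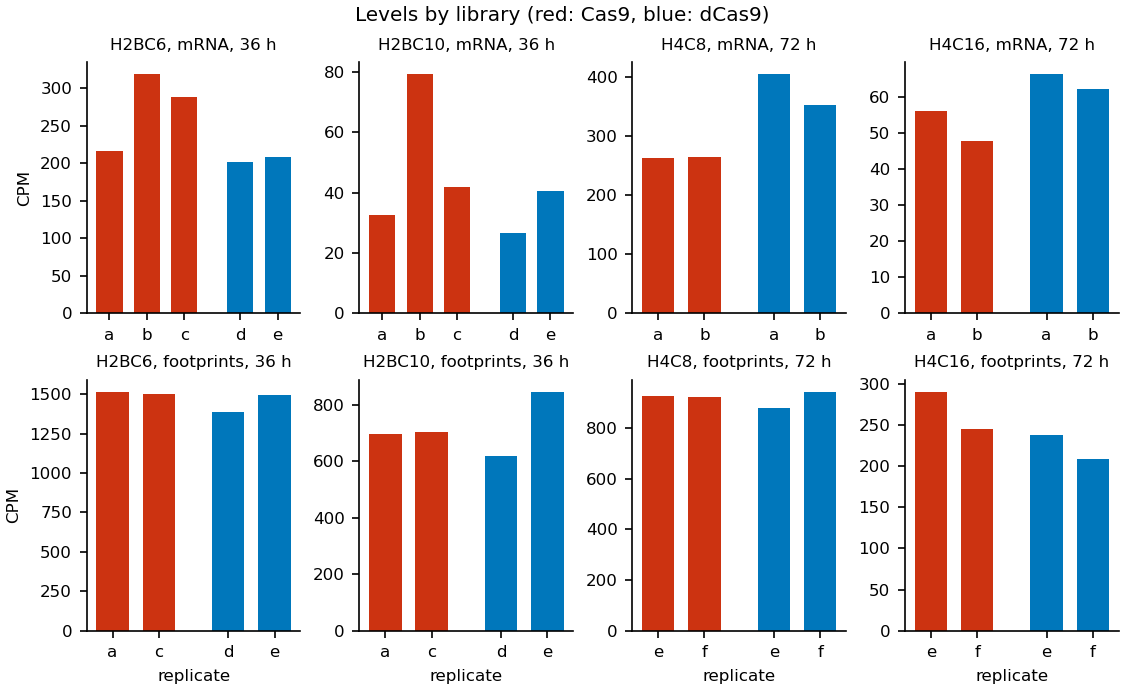
CPM in each library (bars, red Cas9 and blue dCas9, letters are replicates) of H2BC6 and H2BC10 at 36 h and of H4C8 and H4C16 at 72 h, in mRNA (top) and footprints (bottom). H2BC10 mRNA in lysate b, at 79.3 CPM, stands apart from the other 4 values, and H4C8 mRNA is lower in both Cas9 libraries.

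The factors that act on histone genes and mRNAs were read from lists. Of 21 genes of histone mRNA transcription and 3′ end processing, 20 were tested at each time point. None passed at 36 h in footprints, mRNA or translational efficiency by edgeR or DESeq2, with 1, 0 and 3 genes at an unadjusted P under 0.05. SLBP mRNA was 146, 138 and 152 CPM in Cas9 lysates a, b and c and 139 and 145 CPM in dCas9 lysates d and e at 36 h, and its footprints were 146 and 134 against 123 and 171 CPM. At 72 h SLBP mRNA was 162 and 161 against 150 and 144 CPM (log2 0.14, SE 0.12, adjusted P = 0.595), which do not overlap but do not pass.

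NPAT mRNA at 72 h was 80.1 and 65.7 CPM with Cas9 and 53.3 and 68 with dCas9 (log2 0.26, SE 0.15, adjusted P = 0.429). CASP8AP2 mRNA at 36 h was 20.7, 25 and 27.5 CPM in Cas9 lysates against 24 and 27 CPM (log2 -0.06, SE 0.18), and at 72 h it did not reach the count minimum. The 1 gene of the list called at 72 h was LSM10, a subunit of the U7 particle that cuts histone pre-mRNA, with 4.37 and 5.67 CPM with Cas9 and 11.5 and 13.5 CPM with dCas9 (log2 -1.32, SE 0.18, adjusted P = 0.0243). In that comparison 2.66% of all genes were called lower. Of the 20 genes of the list, 14 lay above 0, with a median of 0.13. Neither footprints nor translational efficiency gave a call at 72 h, by edgeR or DESeq2, with 1 and 6 genes at an unadjusted P under 0.05.

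Of the 17 histone chaperones and importins, 0 passed by edgeR in any of the comparisons of Cas9 and dCas9, with medians between -0.12 and 0.08. Genes at an unadjusted P under 0.05 numbered 0 in footprints at both times, 2 in mRNA and 0 in translational efficiency at 36 h, and 3 in each of those at 72 h. DESeq2 called 1 in mRNA and 1 in translational efficiency at 72 h. Of the 11 histones outside the S-phase set, 0 passed by edgeR and DESeq2 called 1, in mRNA at 72 h. At an unadjusted P under 0.05 there were 1 in mRNA at 36 h, 3 in mRNA and 2 in translational efficiency at 72 h, and 0 otherwise. Of the 12 S-phase enzymes, 1 passed: TYMS, thymidylate synthase, whose mRNA at 72 h was 40.3 and 45 CPM with Cas9 and 57.9 and 71.6 CPM with dCas9 (log2 -0.60, SE 0.14, adjusted P = 0.0767). The median of the 12 in that comparison was 0.05, and 2.66% of all genes were called lower in it. DESeq2 called 1 of the 12 in mRNA and 1 in translational efficiency at 72 h. Of the 8 p53 targets, 6 were tested and 0 passed by either tool, with medians in mRNA of 0.13 at 36 h and 0.16 at 72 h. At an unadjusted P under 0.05 there was 1 gene in footprints and 1 in translational efficiency at 72 h and 0 otherwise. Over all 9016 tested genes at 36 h, this limit was met by 188 in footprints, 422 in mRNA and 568 in translational efficiency. Among the 10896 at 72 h it was met by 418, 1613 and 1220.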

How the data were processed

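The authors aligned 50 nt reads to GENCODE transcripts on GRCh38 (hisat2 with release 22 at 36 h, tophat with release 25 at 72 h; the labels' processing notes name HISAT2 2.1.0 for all libraries) and deposited raw counts of reads per transcript, made with fp-count. How reads that fit several histone genes were counted is not given in the sources used here. Transcripts were matched by identifier to GENCODE release 44. At either time point, a gene was read from its transcript of highest summed count, and all totals run over these. Transcripts without a match held 3.74% of counts at 36 h and 4.22% at 72 h. The members and gene lists were chosen with earlier results of these data known.

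A gene was tested if its count averaged 20 or more over footprint and over mRNA libraries. Footprints and mRNA were each fitted alone in edgeR 4.0.16 (R 4.3.3) with TMM scaling and the quasi-likelihood test. Translational efficiency and the contrast of footprints with mRNA came from 1 model of both. Adjustment was over all tested genes (Benjamini-Hochberg), and a gene was called at an adjusted P under 0.1. DESeq2 1.42.0, median-ratio size factors, no count minimum, 1 model of both library types, members summed by type, a replicate block and leaving out each library were alternatives. The GC correction, the crossed block, the genes of like codon number and the members with under 75% of shared windows were added after seeing the data. CPM divide by the TMM-scaled total of each library, and pairs of libraries were compared on log2(CPM + 0.05). Intervals and limits cover counting error only.

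The fits of Cas9 against dCas9 were each tested on simulated data. The contrast of footprints with mRNA, which comes from the joint model, was not. For footprints at 36 h, a joint fit with mRNA gave 602 false calls and the fit alone 14, so the library types were fitted alone. The fit alone recovered only 95 of 200 genes changed by a log2 of 1.5, and the joint fit 161. For mRNA at 36 h the fit alone made 22 false calls and recovered all 200 changed genes. The joint fit, in which the H2BC6 and H2BC10 calls are lost, made 0 and recovered 193. The translational efficiency fit at 36 h recovered 120 and made 98 false calls, above the set rate.

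Genes named are, for each type and time point, the most abundant member in each measure. In each comparison of Cas9 with dCas9 they are every member called or, with none, that of the smallest P in each direction. H1-3, H1-5, H2BC3, H3C3, H4C3, H4C13 and the other members of few mRNA counts, and examples from the lists, were chosen after their values were seen.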

Additional observations from a re-analysis of the deposited data

Results flagged for a closer look

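H2BC8 footprints were higher with Cas9 at 36 h and lower at 72 h in every pair of libraries. The median log2 difference of Cas9 and dCas9 over the pairs was 0.33 at 36 h, where the levels were 1308 and 1188 CPM against 998 and 980 CPM. It was -0.07 at 72 h, where they were 923 and 923 CPM against 949 and 995 CPM. Neither comparison passed (adjusted P = 0.999 and 1, edgeR quasi-likelihood test), and the difference between the time points was not tested.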

How the results depend on the processing

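Every tested member kept footprints above mRNA in dCas9 cells whichever library was left out, with 58 called at 36 h (median log2 difference 1.5 to 1.87) and 60 at 72 h (1.48 to 1.80). The median at 36 h was 1.74 without the count minimum and 1.73 with members summed by type, and subtracting the GC trend, an alternative chosen after seeing the data, gave 1.43 at 36 h and 1.34 at 72 h. Comparisons of Cas9 with dCas9 depended on single libraries. Leaving out 1 library at a time gave 0 to 7 members called for footprints, 0 to 5 for mRNA and 0 to 0 for translational efficiency at 36 h, with medians of -0.01 to 0.27, -0.18 to 0.10 and 0.02 to 0.32. At 72 h it gave 0 to 5, 0 to 16 and 0 to 15 members, with medians of -0.03 to 0.04, -0.19 to 0.09 and -0.10 to 0.26. The lone sample left in a group is then assumed to vary like the others. H2AC4 footprints at 36 h ranged from -0.40 without dCas9 lysate d to 0.14, the opposite sign, without lysate e. The 2 members called in mRNA at 36 h became 0 with DESeq2, with median-ratio size factors, without the count minimum and in 1 model of both library types. The 1 member called in mRNA at 72 h became 2 with DESeq2, 2 without the count minimum and 3 in 1 model, and the 1 in translational efficiency became 3 with DESeq2 and 3 without the count minimum. The median of translational efficiency at 36 h was 0.23 with members summed by type and 0.06 with the GC trend subtracted. The causes were not tested.

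Replicate letters were not shown to pair the libraries. Correlations of deviations were 0.0101 to 0.0761 for the 36 h lysates, 0.0122 for footprints and -0.139 for mRNA at 72 h. With the replicate block, 0 members were called in translational efficiency at 36 h, 0 in footprints, 2 in mRNA and 1 in translational efficiency at 72 h, and over all genes 706 were called in mRNA against 293 without it. The crossed block, added after seeing the data, called 2 members and 829 genes in mRNA at 72 h.

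Depth limits the footprints at 36 h most, where the shallowest library held 689636 counts. Only 2 libraries stood in most groups. How reads shared between near-identical histone genes were counted is not given. At 72 h, counts of H2AC18 and H2AC19, of H3C14 and H3C15 and of H4C14 and H4C15 differed by at most 12, 22 and 9. For H4C11 and H4C12 the largest difference was 2411. Whether a read that matched both genes of a pair was counted for each was not tested, and member totals depend on it.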
